A study of Mus musculus with 6 samples.

Results

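The genes described here are 10 Toll-like receptor genes and partner genes: Tlr1, Tlr2, Tlr4, Tlr6, Tlr7 and Tlr9, the accessory receptor genes Cd180 and Ly86, the chaperone gene Unc93b1 and the adaptor gene Myd88. They were taken by name from a deposited table of 22098 gene names, with the transcript of the highest mean standing for its gene, and all 10 were found. All 10 also passed the filter on low values (a mean of at least 1 RPKM over the libraries), as 10322 of the names did. RNA had been measured by sequencing of poly(A)-enriched RNA from IgM-positive B cells, that is, B cells with their antigen receptor at the surface, sorted from marrow of 6-week-old C57BL/6 mice. Each of 3 genotypes had 2 libraries: wild type, Ikaros_ZnF1-/- (the ZnF1 mutant) and Ikaros_ZnF4-/- (the ZnF4 mutant). The names refer to zinc finger 1 and zinc finger 4 of Ikaros, the DNA-binding transcription factor encoded by Ikzf1. The labels do not say how the alleles were made, give neither sex nor batch, and do not say that libraries of a genotype came from different animals, so each p-value reflects no more than the spread among these samples.

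Toll-like receptors recognise conserved parts of microbes. Tlr1, Tlr2, Tlr4 and Tlr6 act at the cell surface, where Tlr2 pairs with Tlr1 or Tlr6 to bind lipopeptides and Tlr4 binds lipopolysaccharide. Tlr7 and Tlr9 sense RNA and DNA in endosomes, and Unc93b1 carries them there. Nearly all of these receptors signal through Myd88 to NF-kB and interferon regulatory factors. Cd180 (RP105) resembles Tlr4 but lacks the signalling domain, is held at the surface by its partner Ly86 (MD-1), and modulates the response of B cells to lipopolysaccharide. B cells are known to respond strongly to ligands of Tlr7, Tlr9 and the Cd180 complex.

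Because Tlr2 was the only 1 of the 10 genes called between a mutant and wild type, its upstream sequence is shown with those of Tlr1 and Tlr6, which encode its partners. Each is the 250 bases before the most upstream start site in RefSeq (assembly GRCm38.p6, not the mm9 build of the deposited values), written 5′ to 3′ on the strand of the gene. Capitals mark GGGAA on either strand and its longer form TGGGAA, the core that Ikaros is known to bind.
Tlr2, chr3:83841609-83841858, minus strand: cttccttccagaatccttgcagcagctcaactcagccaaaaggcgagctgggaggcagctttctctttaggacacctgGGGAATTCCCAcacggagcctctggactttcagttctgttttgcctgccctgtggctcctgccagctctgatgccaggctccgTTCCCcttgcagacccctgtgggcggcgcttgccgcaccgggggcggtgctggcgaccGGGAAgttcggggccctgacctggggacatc
Tlr1, chr5:64933559-64933808, minus strand: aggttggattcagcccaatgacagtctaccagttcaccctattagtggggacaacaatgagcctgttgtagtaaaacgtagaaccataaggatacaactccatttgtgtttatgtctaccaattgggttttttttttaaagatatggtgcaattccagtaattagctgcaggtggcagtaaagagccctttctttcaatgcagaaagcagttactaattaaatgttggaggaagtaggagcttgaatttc
Tlr6, chr5:64960049-64960298, minus strand: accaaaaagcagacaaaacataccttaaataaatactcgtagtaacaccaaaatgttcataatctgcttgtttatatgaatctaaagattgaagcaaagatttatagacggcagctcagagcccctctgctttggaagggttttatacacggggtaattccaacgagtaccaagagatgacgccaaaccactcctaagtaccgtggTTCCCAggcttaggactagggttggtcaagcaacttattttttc
Tlr2 held 4 matches to GGGAA, of which 1 was also a match to TGGGAA and lay directly beside another, in opposite orientation. Tlr6 held 1 match, of the longer form, and Tlr1 held none. The table had 10 start sites for 7 of the 10 genes (Cd180, Ly86, Myd88, Tlr1, Tlr2, Tlr6 and Tlr9). TGGGAA lay before 6 of these start sites, against 21.6% of all 32851 start sites searched, and GGGAA, which TGGGAA contains, before 7 of them, against 56.2%. The start sites of Cd180 lie so close together that their windows share most bases. A match of letters is a description and shows no binding.

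The order of levels was similar in the 3 genotypes, and it placed the endosomal chaperone and the Cd180 complex on top. Levels are in RPKM, a read count divided by transcript length and library total, so they can be set side by side between genes. Unc93b1 was highest at 427 ± 27.3 RPKM in wild type (mean ± SD, n = 2), and 44 of the 10322 tested genes (0.43%) were at or above it. Ly86 followed at 188 ± 43.7, Cd180 at 127 ± 2.62 and Tlr9 at 109 ± 8.98. Tlr1, at 31.4 ± 6.86, and Myd88, at 28.8 ± 1.20, overlapped between their libraries and did not differ beyond their spread. Tlr7 was at 13.1 ± 0.141, Tlr2 at 7.50 ± 0.141, Tlr4 at 5.15 ± 1.20 and Tlr6 at 2.75 ± 0.636. Apart from Tlr1 and Myd88, no neighbours in the wild-type order overlapped.

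**Figure D1:**
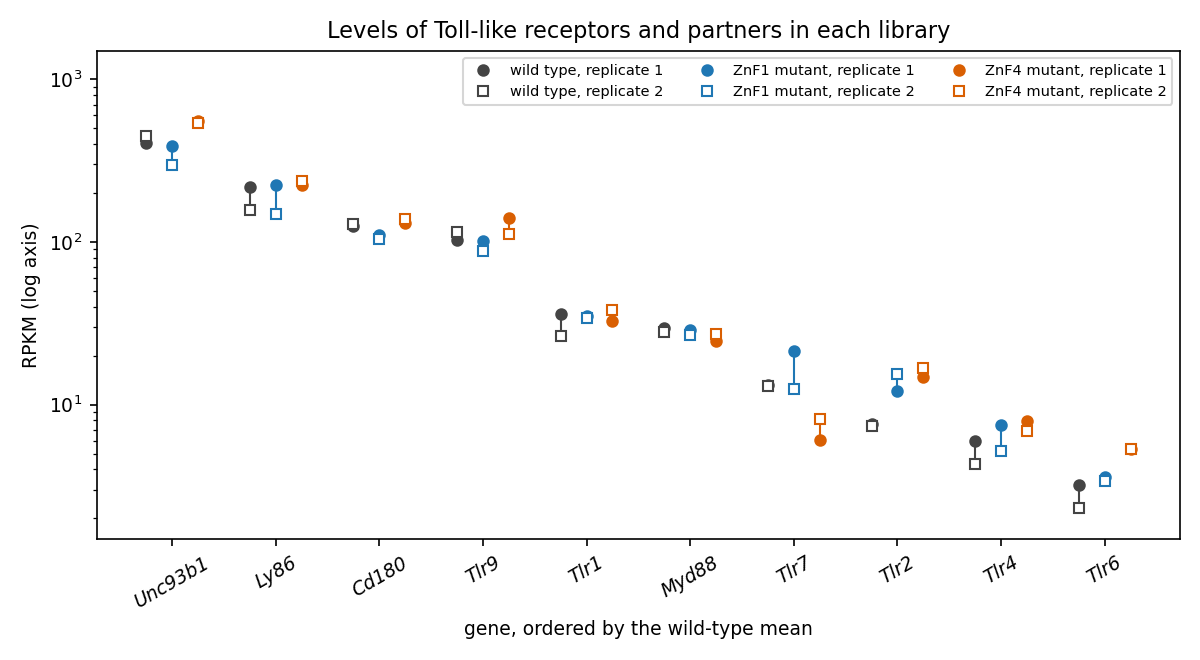
Levels of the 10 genes in RPKM on a log axis, ordered by the wild-type mean. Each point is 1 library, circles are replicate 1, open squares are replicate 2 and a line joins the libraries of a genotype. Tlr2 lies at 7.4 to 7.6 RPKM in wild type and at 12.2 to 16.8 in the mutants, and Tlr7 is at 6.1 and 8.2 in the ZnF4 mutant.

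In the ZnF1 mutant the order of the means was the same, with Tlr7 and Tlr2 overlapping. In the ZnF4 mutant Tlr7 was at rank 9 rather than rank 7, below Tlr2 and Tlr4, and Cd180 overlapped with Tlr9 and Tlr4 with Tlr7. Of the Toll-like receptor genes outside the 10, Tlr3, Tlr5, Tlr8 and Tlr11 had a mean under 1 RPKM and were not tested. Their highest value in any library was 1.0 RPKM, for Tlr8 in ZnF1 replicate 2.

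Every library carried the B cell profile: the 10 B cell markers summed to between 4942 and 5993 RPKM, led by Cd79b, which signals for the B cell receptor, and Ms4a1, which encodes CD20. ZnF1 replicate 2 stood apart in markers of other marrow cells. The 20 granulocyte and monocyte markers in the table, led by S100a9 and S100a8, summed to 503 and 790 RPKM in wild type, 1556 and 8365 in ZnF1 replicates 1 and 2, and 1924 and 2116 in the ZnF4 mutant, with none at 0 in any library. ZnF1 replicate 2 also had the highest sums of erythroid (665 RPKM), T and NK cell (31.2 RPKM) and macrophage and dendritic cell markers (129 RPKM), and wild-type replicate 1 had the highest sum of plasma cell markers (677 RPKM). Ikzf1 was at 177 and 179 RPKM in wild type, 201 and 168 in ZnF1 mutants and 287 and 244 in ZnF4 mutants. A value per transcript cannot tell an intact finger from a deleted finger, so it does not check the genotypes. Xist, transcribed from an inactive X chromosome, had a value of 0 in ZnF1 replicate 2 and ZnF4 replicate 2. In the other libraries it lay between 39.6 and 66.8 RPKM. The Y-linked gene Ddx3y was at 20.4 RPKM in ZnF1 replicate 2, at 16.6 in ZnF4 replicate 2 and at 0 elsewhere. Y-linked RNA was thus found in replicate 2 of each mutant and in neither wild-type library, so it overlaps in part with genotype. The term for Y-linked RNA used below marks libraries with Ddx3y above 0. In bulk RNA, fewer cells of a type and less RNA per cell cannot be told apart.

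Whether finger 1 bears on these genes was asked by comparing the ZnF1 mutant with wild type, where no member was called and Tlr2 had the largest difference of the 10. By limma (a linear model fitted to all genes on the scale log2(RPKM + 0.5), with Benjamini-Hochberg adjustment over the 10322 genes), 0 of the 10 genes were called at an adjusted p under 0.05, beside 0.271% of all tested genes (0.0969% higher and 0.174% lower). At an unadjusted p under 0.05 there was 1 of the 10 (Tlr2) and 1232 of all. The libraries of the genotypes did not overlap for 5 of the 10 genes, beside 41.5% of all tested genes: Tlr2 and Tlr6 were above wild type (2 genes, beside 21.1% of all) and Tlr9, Cd180 and Unc93b1 below (3 genes, beside 20.3%). Fold changes ran from -0.33 (Unc93b1) to 0.83 (Tlr2) on the log2 scale, with a median of 0.06 beside 0.00 over all genes.

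Tlr2 was at 7.6 and 7.4 RPKM in wild type and at 12.2 and 15.4 in ZnF1 replicates 1 and 2. Both mutant libraries lay above both wild-type libraries. The log2 fold change was 0.83 (SE 0.15, 95% interval 0.47 to 1.19, adjusted p = 0.1 by limma), which did not pass. It was 0.99 without ZnF1 replicate 1 and 0.67 without ZnF1 replicate 2, the library with the highest sum of granulocyte and monocyte markers. Each of these fits leaves 1 ZnF1 library.

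The surface receptor genes in the ZnF4 mutant included the only called member. Tlr2 rose from 7.50 ± 0.141 to 15.8 ± 1.41 RPKM (n = 2 each), with 14.8 and 16.8 in the mutant libraries. Both lay above the wild-type libraries, and they overlapped the ZnF1 libraries, of which replicate 2 was at 15.4. The log2 fold change was 1.02 (SE 0.15, 95% interval 0.66 to 1.38, adjusted p = 0.0168 by limma), a fold of 2.03. By limma 1 of the 10 genes was called higher and 0 lower, beside 1.78% and 1.41% of all tested genes and 3.2% in either direction. At an unadjusted p under 0.05 there were 3 of the 10 (Tlr2, Tlr6 and Tlr7) and 1800 of all. Leaving out replicate 1 or 2 of wild type, or replicate 1 or 2 of the ZnF4 mutant, gave fold changes of 1.04, 1.01, 1.11 and 0.94. The call of Tlr2 ended in each of these fits, which leave 1 library in a compared genotype. Most calls over all genes ended in them too. Testing all 22098 names with no filter also ended the call of Tlr2 (adjusted p = 0.116).

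Tlr2 is also known as a gene of granulocytes and monocytes, whose markers were above wild type in every mutant library, by the sums given above. ZnF1 replicates 1 and 2 had 12.2 and 15.4 RPKM of Tlr2 beside marker sums of 1556 and 8365. In a fit with a term for the median level of these markers, the fold change in the ZnF4 mutant was 0.84 (adjusted p = 0.0415), and that in the ZnF1 mutant was 0.54 (adjusted p = 0.669). The term was lower in both wild-type libraries (-1.49 and -0.99) than in every mutant library (-0.23 to 2.27), so it overlaps with genotype, and the part of these cells in the level of Tlr2 was not tested. With a term for Y-linked RNA, for which the labels give no sex, the ZnF4 value was 0.90 (adjusted p = 0.0421).

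Tlr6 was at 3.2 and 2.3 RPKM in wild type, 3.6 and 3.4 in the ZnF1 mutant and 5.3 in both ZnF4 libraries. The ZnF4 libraries were the highest, and no group overlapped another. The log2 fold change against wild type was 0.85 in the ZnF4 mutant (SE 0.19, 95% interval 0.40 to 1.3, adjusted p = 0.0714 by limma), which did not pass. The adjusted p was 0.23 with no filter, 0.118 with quantile normalization and 0.0492 with only the compared genotypes fitted. Leaving out single libraries gave fold changes from 0.65 to 1.05. Tlr1, the alternative partner of Tlr2, was at 36.2 and 26.5 RPKM in wild type, 35.0 and 34.1 in ZnF1 mutants and 32.7 and 38.4 in ZnF4 mutants, and all groups overlapped. Its log2 fold change in the ZnF4 mutant was 0.19 (95% interval -0.20 to 0.59). The level of Tlr1 was 11.3 and 11.5 times that of Tlr6 in the wild-type libraries, 9.72 and 10.03 times in the ZnF1 mutant and 6.17 and 7.25 times in the ZnF4 mutant. Tlr1 and Tlr6 are similar in sequence, so reads shared between them may have been split in the counting.

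Tlr4 was at 6.0 and 4.3 RPKM in wild type, 7.5 and 5.2 in ZnF1 mutants and 7.9 and 6.9 in ZnF4 mutants. Its ZnF4 libraries lay above the wild-type libraries with a log2 fold change of 0.50 (95% interval -0.03 to 1.02, adjusted p = 0.312), which did not pass. Of the molecules that present lipopolysaccharide to Tlr4, Ly96 (MD-2) lay between 3.9 and 6.5 RPKM over all libraries and Cd14 between 0.2 and 1.7.

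**Figure D2:**
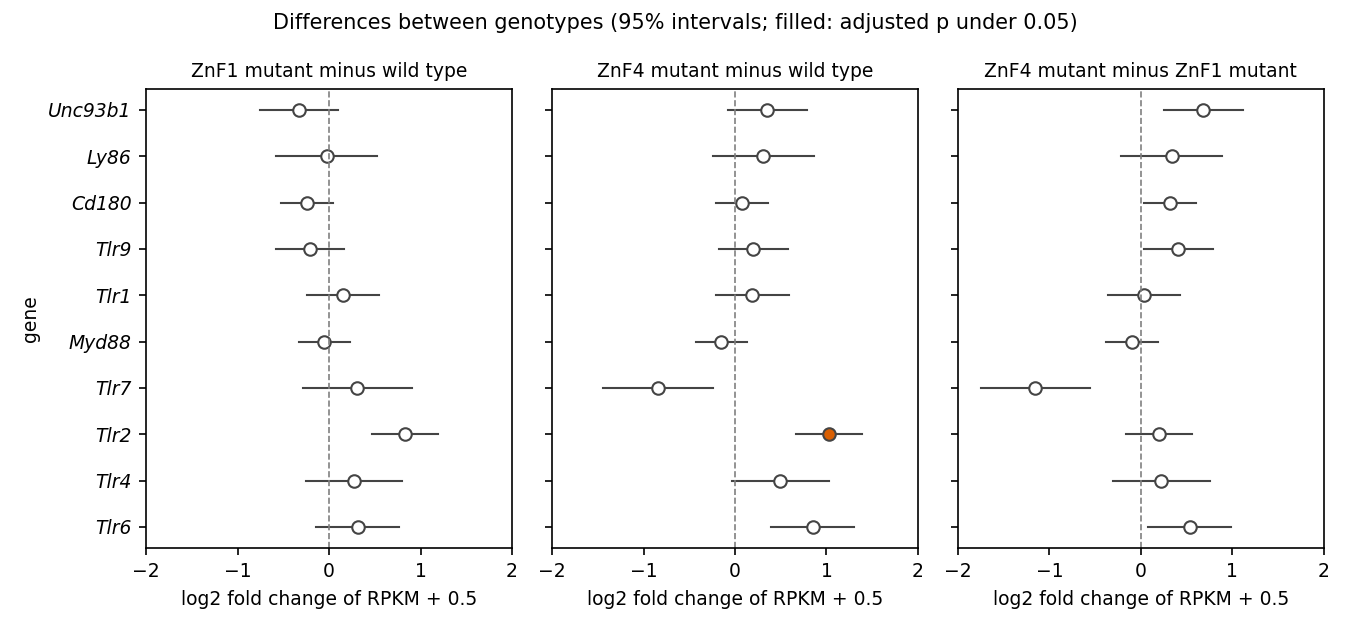
Log2 fold changes of RPKM + 0.5 for the 10 genes in each comparison, with 95% intervals from limma over 6 libraries. Filled points have an adjusted p under 0.05, and the dashed line marks no difference. Tlr2 in the ZnF4 mutant, at 1.02, is the only filled point. The interval of Tlr7 lies below 0 in both comparisons of the ZnF4 mutant, without passing after adjustment.

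Among the endosomal receptor genes, Tlr7 and Tlr9 had opposite signs in the ZnF4 mutant. Tlr7 was at 13.2 and 13.0 RPKM in wild type, 21.5 and 12.4 in ZnF1 replicates 1 and 2, and 6.1 and 8.2 in the ZnF4 mutant. The ZnF4 libraries were the lowest of the 6, and the ZnF1 libraries lay on either side of wild type. Against wild type the difference on the log2 scale was -0.84 in the ZnF4 mutant (SE 0.26, 95% interval -1.44 to -0.24, adjusted p = 0.146 by limma) and 0.31 in the ZnF1 mutant (95% interval -0.29 to 0.91, adjusted p = 0.711), so both missed the threshold. Without ZnF1 replicate 1 the ZnF1 value was -0.08. Leaving out ZnF1 replicate 1 or 2 kept the ZnF4 value at -0.84 and changed only the spread shared by the genotypes. Over all fits without a single library, the ZnF4 value ran from -1.04 to -0.64. The adjusted p of the ZnF4 value by limma was 0.478 with no filter and 0.0332 with only the compared genotypes fitted.

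The direct comparison of the mutants gave -1.15 for Tlr7 (ZnF4 minus ZnF1, SE 0.26, 95% interval -1.75 to -0.55, adjusted p = 0.0507), just outside the threshold. It was -1.54 without ZnF1 replicate 2 and -0.77 without ZnF1 replicate 1. The adjusted p was 0.0434 with a filter of 3 RPKM, 0.0482 with a pseudocount of 0.1 and 0.0479 with quantile normalization. It was 0.292 with no filter, 0.117 with only the compared genotypes fitted and 0.0767 with no intensity trend. With the granulocyte and monocyte term the difference was -1.38 (adjusted p = 0.0035). Tlr7 is X-linked and is known to escape X inactivation in some cells. Among the mutant libraries, those with Xist (replicate 1) had 21.5 and 6.1 RPKM of Tlr7, and those without it (replicate 2) had 12.4 and 8.2. With a term for Y-linked RNA the direct difference was -1.15 (adjusted p = 0.0679 by limma). This value could not change, because replicate 2 of each mutant carried that RNA, so the fit does not bear on a part of sex.

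Tlr9 was at 103 and 116 RPKM in wild type, 101 and 87.7 in ZnF1 mutants and 141 and 111 in ZnF4 mutants. The ZnF1 libraries were the lowest, and the ZnF4 libraries overlapped wild type. Against wild type its log2 fold change was -0.21 (ZnF1) and 0.20 (ZnF4), and the direct comparison gave 0.41 (95% interval 0.03 to 0.79, adjusted p = 0.209), none of which passed. The level of Tlr9 was 7.80 and 8.90 times that of Tlr7 in the wild-type libraries, 4.71 and 7.07 times in the ZnF1 mutant, and 23.1 and 13.6 times in the ZnF4 mutant. These ratios did not overlap between the ZnF4 mutant and the other genotypes, and they were given no test.

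Unc93b1 was at 407 and 446 RPKM in wild type, 388 and 297 in ZnF1 mutants and 555 and 536 in ZnF4 mutants, and no group overlapped another. The direct comparison gave 0.68 on the log2 scale (SE 0.18, 95% interval 0.25 to 1.11, adjusted p = 0.0856), and the differences from wild type were -0.33 and 0.35, so none passed. Without ZnF1 replicate 2 the direct difference was 0.49 (adjusted p = 0.302), and without ZnF1 replicate 1 it was 0.88 (adjusted p = 0.0532). It was the only 1 of the 10 genes with several transcripts in the table. The other transcript was far lower, at 33.2 and 40.2 RPKM in wild type, 33.0 and 33.5 in ZnF1 mutants and 54.9 and 66.4 in ZnF4 mutants, and was also highest in the ZnF4 libraries. These values may share reads, so they are not independent.

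Plasmacytoid dendritic cells, which are known for high Tlr7, Tlr9 and Irf7, are another cell type of the marrow. All 8 of their markers were in the table and summed to 71.3 and 92.1 RPKM in wild type, 115 and 110 in ZnF1 mutants and 63.2 and 74.1 in ZnF4 mutants. The sums were led by Bst2, also a known interferon target, and by Tcf4. The median of the 8 markers on the log2 scale went another way in the ZnF4 mutant. It was 0.76 and 1.42 in wild type, 1.84 and 2.24 in ZnF1 mutants and 1.46 and 1.67 in ZnF4 mutants. Of the defining markers, Siglech, chosen after its values were seen, lay between 1.1 and 7.2 RPKM, and Klk1 was listed at 0 in wild-type replicate 1. The part of these cells in the values of Tlr7 was not tested.

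Neither gene of the Cd180 complex was called in any comparison. Cd180 was at 126 and 129 RPKM in wild type, 111 and 105 in ZnF1 mutants and 130 and 139 in ZnF4 mutants. The ZnF1 libraries were lowest and no group overlapped another, yet the log2 fold changes were small, at -0.24 in the ZnF1 mutant (95% interval -0.53 to 0.04) and 0.08 in the ZnF4 mutant (95% interval -0.21 to 0.36). Ly86 was at 219 and 157 RPKM in wild type, 224 and 148 in ZnF1 mutants and 223 and 237 in ZnF4 mutants. Its libraries spread widely in wild type and the ZnF1 mutant, and replicate 2 was the lower in both. Ly86 had a log2 fold change of -0.03 with ZnF1 (95% interval -0.58 to 0.53) and 0.31 in the ZnF4 mutant (95% interval -0.24 to 0.87). The level of Ly86 was between 1.22 and 2.02 times that of Cd180 in the 6 libraries.

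Myd88, the shared adaptor, varied least, between 24.5 and 29.6 RPKM over the 6 libraries. Myd88 had a log2 fold change of -0.05 with ZnF1 (95% interval -0.33 to 0.23) and -0.15 in the ZnF4 mutant (95% interval -0.43 to 0.13). These intervals leave out changes of 0.5 in either direction on the log2 scale.

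Between the mutants, 0 of the 10 genes were called by limma, beside 4.78% of all tested genes (2.69% higher and 2.08% lower in the ZnF4 mutant), with 5 of the 10 (Tlr6, Tlr7, Tlr9, Cd180 and Unc93b1) and 2064 of all at an unadjusted p under 0.05. Libraries did not overlap for those 5 genes, 4 higher and 1 lower in the ZnF4 mutant, beside 46.8% of all tested genes (21% higher and 25.8% lower). Against wild type, 8 of the 10 did not overlap in the ZnF4 mutant (6 higher and 2 lower), beside 50.4% of all tested genes (23.1% higher and 27.2% lower). Each mutant was set against 1 shared pair of wild-type libraries.

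The wider pathway was described with 58 genes in 5 lists, of which 49 were tested. In the ZnF1 mutant 0 of the 49 were called by limma, beside 0.271% of all tested genes, and 12 of the 49 had an unadjusted p under 0.05, beside 1232 of the 10322. In the ZnF4 mutant 3 rose and 1 fell, beside 3.2% of all genes called, and 11 had an unadjusted p under 0.05, beside 1800 of all. The median log2 fold change there was -0.01 over the 49 beside -0.02 over all genes. Between the mutants 3 were higher and 1 was lower in the ZnF4 mutant, beside 4.78% of all genes called, and 12 had an unadjusted p under 0.05, beside 2064 of all.

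Of the 2 tested genes in the list of other Toll-like receptors, Tlr12, known in mice as a sensor of parasite profilin, differed between the mutants. Its level was 6.1 and 10.1 RPKM in wild type, 3.6 and 3.3 in ZnF1 mutants and 12.8 and 12.5 in ZnF4 mutants. No group overlapped another, with the ZnF1 libraries lowest and the ZnF4 libraries highest. The direct log2 difference was 1.74 (ZnF4 minus ZnF1, SE 0.22, adjusted p = 0.00801 by limma), while the differences from wild type, -1.08 and 0.65, did not pass (adjusted p = 0.124 and 0.189). The direct call was lost without ZnF4 replicate 1 or 2 (adjusted p = 0.138 and 0.121). Tlr11, with which Tlr12 is known to act, was at 0.0 or 0.1 RPKM in every library. Tlr13 reached 5.6 RPKM in ZnF1 replicate 2 and lay at 1.0 or less elsewhere.

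**Figure D3:**
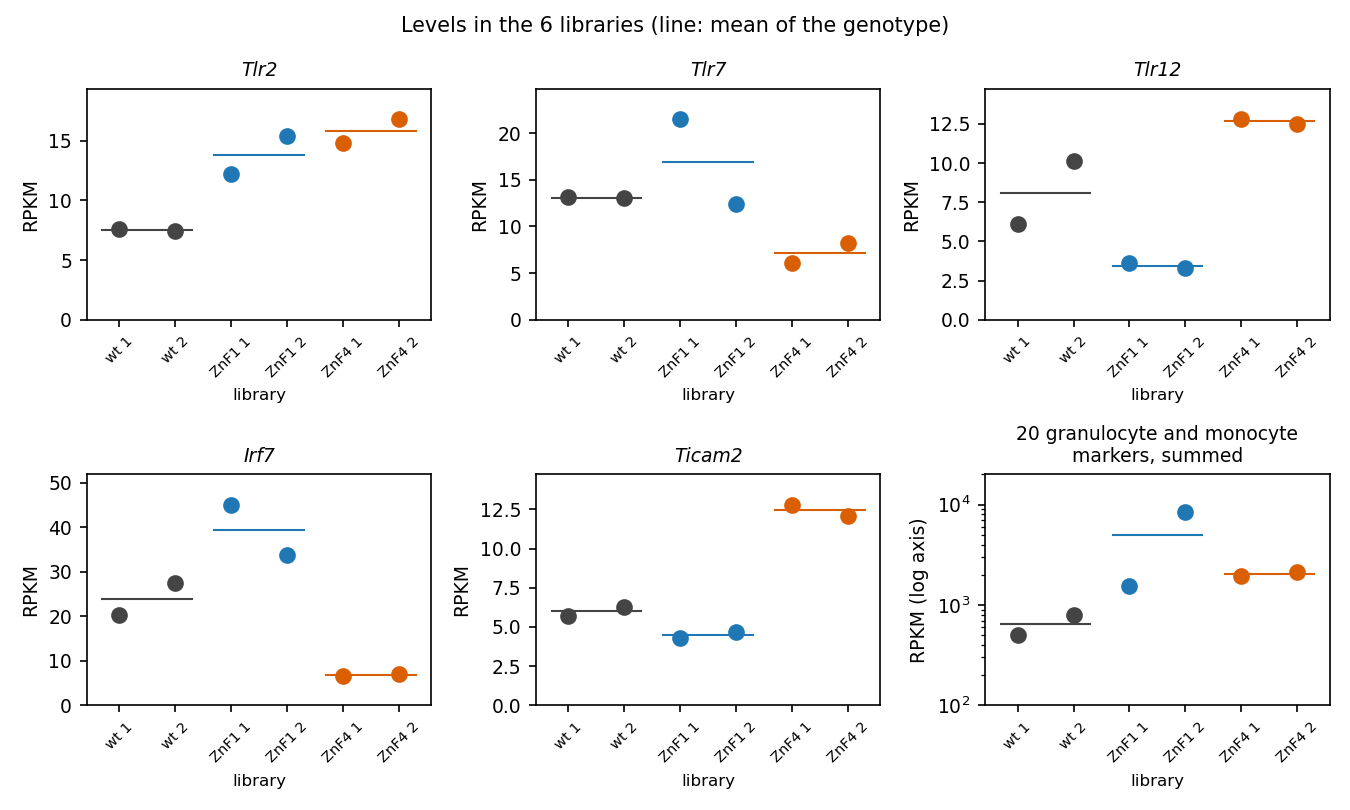
Levels in RPKM in the 6 libraries for Tlr2, Tlr7, Tlr12, Irf7 and Ticam2 and, on a log axis, the sum of 20 granulocyte and monocyte markers. Points are libraries and lines are genotype means. Irf7 is at 6.6 and 7.1 RPKM in the ZnF4 mutant and at 20.4 to 45.1 in the others, and the marker sum reaches 8365 in ZnF1 replicate 2.

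Among 13 tested co-receptor, chaperone and trafficking genes, Cd36, a scavenger receptor known to assist Tlr2 with Tlr6, was the only called gene. Its level was 16.2 and 19.4 RPKM in wild type, 35.8 and 23.9 in ZnF1 mutants and 112 and 81.1 in ZnF4 mutants, where it rose by 2.40 on the log2 scale (adjusted p = 0.00549 by limma). It was also higher in the ZnF4 than in the ZnF1 mutant (1.69, adjusted p = 0.00986). Ctss, an endosomal protease, and Hsp90b1, the chaperone of Toll-like receptors known as gp96, were the most abundant of this list at means of 382 and 305 RPKM, and neither was called.

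Of 17 tested adaptors and kinases, Ticam2, known as TRAM, which links Tlr4 to interferon signalling, was the only called gene. Its level was 5.7 and 6.3 RPKM in wild type, 4.3 and 4.7 in ZnF1 mutants and 12.8 and 12.1 in ZnF4 mutants, with no overlap between groups. It rose by 0.995 on the log2 scale in the ZnF4 mutant (adjusted p = 0.0148 by limma), and the direct comparison gave 1.37 (adjusted p = 0.00383). The other 16 were not called in any comparison.

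Of 7 tested transcription factor genes, Irf7, which acts below Tlr7 and Tlr9 in interferon induction, was the only called gene. Its level was 20.4 and 27.4 RPKM in wild type, 45.1 and 33.8 in ZnF1 mutants and 6.6 and 7.1 in ZnF4 mutants, with no overlap between groups. It fell by 1.72 on the log2 scale in the ZnF4 mutant (adjusted p = 0.00656 by limma) and was lower by 2.43 than in the ZnF1 mutant (log2 difference -2.43, adjusted p = 0.00205). Irf8 and Irf5, the most abundant of the list at means of 273 and 169 RPKM, were not called. Of 10 tested negative regulators, Traf1, an adaptor and known NF-kB target, rose from 4.6 and 3.6 RPKM in wild type to 8.8 and 15.6 in the ZnF4 mutant (log2 fold change 1.42, adjusted p = 0.0356 by limma). Traf1 was at 9.7 and 8.8 RPKM in the ZnF1 libraries, also above wild type (1.09, adjusted p = 0.173) and overlapping the ZnF4 libraries (direct difference 0.33, adjusted p = 0.548), and neither difference passed. Leaving out any wild-type or ZnF4 library ended the calls of Cd36, Ticam2, Irf7 and Traf1 against wild type, with adjusted p between 0.0589 (Irf7) and 0.246 (Traf1). Leaving out ZnF4 replicate 1 or 2 likewise ended the direct calls of Cd36, Ticam2 and Irf7, with adjusted p between 0.0627 (Irf7) and 0.143 (Cd36). With no filter the calls of Cd36, Irf7 and Traf1 against wild type were lost (adjusted p = 0.0904, 0.1 and 0.254), as were the direct calls of Cd36 and Tlr12 (0.147 and 0.111), and Traf1 was also lost with no intensity trend (0.0524) or with the Y-linked term (0.104).

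**Figure D4:**
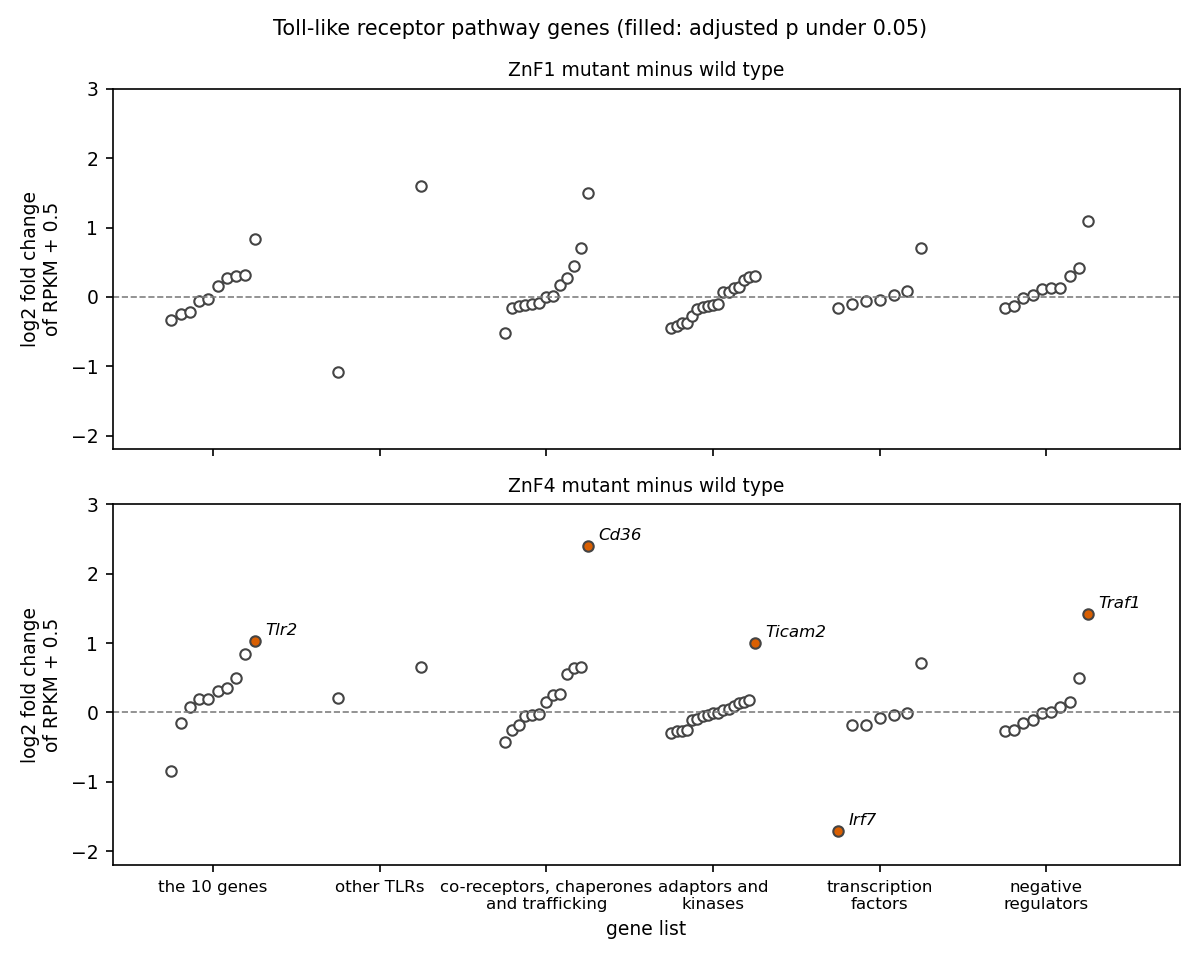
Log2 fold changes of RPKM + 0.5 against wild type for the 10 genes and for 49 tested pathway genes in 5 lists, in the ZnF1 mutant (top) and the ZnF4 mutant (bottom). Each point is a gene, ordered by value within its list, and filled points have an adjusted p under 0.05. None is filled in the ZnF1 mutant, and Tlr2, Cd36, Ticam2, Irf7 and Traf1 are filled in the ZnF4 mutant.

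The genes whose log2 values followed Tlr2 most closely over the 6 libraries were Sft2d2 (Pearson r = 0.998), Wdsub1 (0.994) and Rragb (0.993). They share the libraries and genotypes with Tlr2, and 44 tested genes reached an r of at least 0.95, so this likeness describes the 6 libraries only. Sft2d2 was at 29.9 and 29.6 RPKM in wild type, 36.0 and 38.8 in ZnF1 mutants and 38.1 and 41.1 in ZnF4 mutants.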

How the data were processed

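The submitters sequenced poly(A)-enriched RNA of sorted IgM-positive marrow B cells in 6 libraries, 2 per genotype, prepared with an Illumina kit per the labels' protocols. The authors deposited RPKM per RefSeq transcript, rounded to steps of 0.1, for 26531 transcripts with values. TopHat, bedtools and the build mm9 are named in the submitters' processing notes; versions and the read total used for scaling are not given in the sources used here, nor is the strand. Whole reads could not be recovered: for transcripts under 150 bases, the best read total put between 36.0% and 50.0% of values above 0 within 0.05 RPKM of whole reads, so the depth is unknown and no counting intervals are given. RPKM times length summed to between 0.775 and 0.833 of that total.

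The transcript with the highest mean stood for each of 22098 gene names, of which 10322 had a mean of at least 1 RPKM and were tested on log2(RPKM + 0.5). All 6 libraries entered a fit by limma 3.58.1 (R 4.3.3) with a mean for each genotype (eBayes with an intensity trend, two-sided, Benjamini-Hochberg adjustment over tested genes). The code was also run on simulated normal values with the spread of that fit. These hold no outlying library, so the run checks the code and not the calls made here. The added 0.5 makes fold changes smaller for low genes. Groups come from the sample titles. The rule for named genes took the 10 genes, called pathway genes or otherwise the 2 most abundant of a list, the 2 most abundant markers of a list, the 3 genes most like a called member, and Ikzf1, Xist and Ddx3y. Outside it, Tlr3, Tlr5, Tlr8, Tlr11, Tlr13, Ly96, Cd14, Ctss, Hsp90b1, Irf5, Irf8, Siglech, Klk1, Fcer2a, Cr2, Pax5, Ebf1 and Blk were named after their values were seen. The members and lists were chosen with earlier results of these data known. Of 81 marker genes in 7 lists, 78 were in the table. Alternatives covered the pseudocount, filter, scaling, transcript choice, samples, trend, replicate block, marker terms and leaving out each library.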

Additional observations from a re-analysis of the deposited data

How the results depend on the processing

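Of the 360 fold changes of the 10 genes recomputed under 12 alternatives other than leaving out a library, 349 kept their sign and side of the threshold. Many of these signs were fixed in advance. The changed filters, the fit of only the compared genotypes, the fit with no trend and the replicate block cannot change a fold change. Summing the transcripts of a name changes only Unc93b1, and the Y-linked term cannot change a direct difference. Most of the values had also not been called to begin with. The reversals were Ly86 in the ZnF1 mutant, at 0.026 with quantile normalization, 0.56 with the granulocyte and monocyte term and 0.10 with the Y-linked term, and Myd88 there at 0.026 with the marker term. The count of called members in the ZnF4 mutant (1 of 10) was 0 with no filter, where 22098 names were tested, and 3 with only the compared genotypes fitted, which added Tlr6 and Tlr7; Tlr2 had an adjusted p between 0.00836 and 0.116 over these alternatives. Between the mutants the count was 1 (Tlr7) with a pseudocount of 0.1, a filter of 3 RPKM, quantile normalization or the marker term, with adjusted p = 0.0482, 0.0434, 0.0479 and 0.0035. It stayed at 0 under the other alternatives, such as no filter, where Tlr7 had an adjusted p of 0.292. Pathway calls with no filter were 1 in the ZnF4 mutant and 2 between the mutants.

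Calls over all genes in the ZnF1 mutant (28) were 104 with no filter, 13 with quantile normalization, 0 with only the compared genotypes (1053 at an unadjusted p under 0.05), 3 with the marker term and 0 with the Y-linked term (863). In the ZnF4 mutant (330) they were 594 with only the compared genotypes and 171 with the Y-linked term. Between the mutants (493) they were 327 with no filter, 249 with only the compared genotypes and 786 with the marker term. The cause was not tested.

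Leaving out each library gave 0 to 512, 0 to 591 and 0 to 814 calls over all genes in the ZnF1, ZnF4 and direct comparisons, 0 to 1, 0 to 3 and 0 to 1 called members, and 0 to 2, 0 to 4 and 0 to 7 pathway calls. The counts of 0 over all genes came with 609 to 1689 genes at an unadjusted p under 0.05. Fold changes that changed sign ranged from -0.066 to 0.38 (Tlr1), -0.076 to 0.69 (Tlr7) and -0.33 to 0.27 (Ly86) in the ZnF1 mutant, from -0.030 to 0.41 (Tlr1) in the ZnF4 mutant, and from -0.078 to 0.15 (Tlr1), -0.021 to 0.47 (Tlr4) and -0.067 to 0.73 (Traf1) between the mutants. The lone library of a genotype is then assumed to vary like the others.

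Replicate numbers are shared between genotypes. Deviations of same-numbered libraries correlated across genes at 0.28 (wild type and ZnF1), -0.03 (wild type and ZnF4) and 0.21 (ZnF1 and ZnF4), so the numbers were not taken as pairs. With the number as a replicate block, Tlr2 in the ZnF4 mutant had an adjusted p of 0.02, and 27, 327 and 529 genes were called in the ZnF1, ZnF4 and direct comparisons.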

Other observations

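Of the 10 B cell markers, none was called in any comparison of genotypes by limma. Over all tested genes, 0.271%, 3.2% and 4.78% were called in the ZnF1, ZnF4 and direct comparisons. In the ZnF1 mutant 2 markers had a positive and 8 a negative fold change. The positive 2 were Fcer2a and Cr2, markers of mature B cells. Both ZnF1 libraries lay below wild type for 5 of the 10 markers and above it for 2, beside 20.3% and 21.1% of all tested genes. The most negative were the transcription factor genes Pax5 (-0.76 on the log2 scale, adjusted p = 0.240) and Ebf1 (-0.60, adjusted p = 0.188) and the kinase gene Blk (-0.47, adjusted p = 0.255), which did not pass. These genes were chosen after their values were seen. Fcer2a, which encodes CD23, a marker of follicular B cells, was at 253 and 229 RPKM in wild type, 426 and 443 in ZnF1 mutants and 195 and 384 in ZnF4 mutants. Both ZnF1 libraries lay above the other 4. On the log2 scale the difference was 0.85 for ZnF1 (adjusted p = 0.311 by limma) and 0.18 in the ZnF4 mutant (adjusted p = 0.796), and neither passed. Cr2, which encodes the complement receptor CD21, was at 24.7 and 23.1 RPKM in wild type, 44.1 and 42.1 in ZnF1 mutants and 25.2 and 38.6 in ZnF4 mutants, with fold changes of 0.84 and 0.38 on the log2 scale (adjusted p = 0.163 and 0.369), which did not pass. Their part in the levels of the Toll-like receptor genes was not tested.

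Bst2, known as tetherin and as an interferon target, was lower in the ZnF4 than in the ZnF1 mutant, as Irf7 was. Its level was 43.7 and 56.0 RPKM in wild type, 75.3 and 59.9 in ZnF1 mutants and 24.5 and 30 in ZnF4 mutants. The direct log2 difference was -1.29 (adjusted p = 0.0112 by limma), and against wild type the ZnF4 mutant gave -0.86 (adjusted p = 0.0551), which did not pass.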
